A study of Mus musculus with 11 samples.

Results

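Edn3 encodes endothelin 3, and it is 1 gene of the 19444 in the expression table. It was chosen by its measured level in the cells of cluster 2, so its levels by cluster are given as a description, and the genes that follow it among cluster 2 cells were found by rank correlation with it. Of the 878 cells in the table, 397 held at least 1 Edn3 count. The description as a cluster 2 gene held only in part: the cells with the highest Edn3 level belonged to cluster 3, and the mean level of cluster 4 was close to that of cluster 2.

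Endothelins are short secreted peptides that are cut from longer precursors, first by furin-type proteases and then by endothelin-converting enzymes. They act on the G protein-coupled receptors endothelin receptor A and endothelin receptor B, and endothelin 3 acts mainly on receptor B. The signal from endothelin 3 to receptor B is best known in the neural crest, where it is needed for the enteric neurons of the distal gut and for the pigment cells of the skin. Sympathetic neurons come from the same embryonic source.

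The cells were single sorted cells of the stellate ganglion, a sympathetic ganglion between neck and chest, from male C57BL/6J mice aged 6 to 8 weeks. All mice carried the retrograde tracers CTB-488, injected into the forelimb, and CTB-555, injected into the interscapular brown adipose tissue, and ganglia were taken after 3 days. Each of 3 sets, spread over 11 plates in all, pooled the ganglia of 2 mice, which makes the set the replicate (n = 3). No cell of the table could be tied to a well, so Edn3 was not compared between tracers, and there was no untreated group. Plates held 2050165 to 3373157 counts, and the median cell held 32923.5. The authors placed each cell in 1 of 4 numbered clusters without cell type names. Cluster 3 mixed 47 cells with at least 52105 counts and 54 cells with at most 18608, here called its high-count and low-count cells and split at that gap after the data were seen. The noradrenergic neuron markers Th, Dbh, Slc6a2, Slc18a2, Phox2a, Hand2 and Prph were detected in every group of cells. Th averaged 63.0 ± 15.7 counts per 10000 in cluster 2, 47.6 ± 14.6 in the high-count cells, 24.6 ± 8.99 in cluster 4 and 49.0 ± 11.8 in cluster 1 (SD, n = 3 sets). The 4 cholinergic markers (Chat, Slc18a3, Slc5a7 and Vip) summed to 58.2 to 64.6 counts per 10000 in cluster 4 and to at most 0.391 in clusters 1 and 2 and the high-count cells. The low-count cells held endothelial, glial, fibroblast and mural markers, at mean summed levels of 30.2, 38.8, 25.1 and 16.9 counts per 10000, together with Th at 18.4 ± 9.11. By set, the glial sum was 24.0, 80.6 and 12.0 and the fibroblast sum 32.2, 43.0 and 0. Most of the glial sum was Apoe, and most of the fibroblast sum was Dcn, counted in 9 of the 54 cells.

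Edn3 (ENSMUSG00000027524.9) lies on the plus strand at chr2:174760619-174784042 in GRCm38, by the GENCODE M21 annotation, and no other annotated gene overlaps it. Its longest annotated transcript, Edn3-201, has 5 exons. The promoter window around its start, 250 bases before to 50 after, is shown because it holds the site where transcription of the gene starts. It is the RefSeq window chr2:174760369-174760668 on the plus strand of GRCm38.p6, printed 5′ to 3′, and the capitals mark the motif CANNTG, the E-box read by basic helix-loop-helix factors such as Hand2.
Edn3 promoter: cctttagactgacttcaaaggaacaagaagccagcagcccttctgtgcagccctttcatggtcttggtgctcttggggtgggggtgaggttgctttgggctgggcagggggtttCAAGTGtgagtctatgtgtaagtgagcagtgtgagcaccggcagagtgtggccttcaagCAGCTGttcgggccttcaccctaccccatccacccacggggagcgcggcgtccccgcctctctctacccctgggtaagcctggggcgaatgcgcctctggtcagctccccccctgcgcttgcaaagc
The window holds 2 E-boxes and is 61.0% G and C. Of 32851 mouse promoter windows of this length, 72.3% hold at least 1 E-box on either strand and 39.6% hold at least as many as Edn3. The letters of a GATA core (AGATAA) are not in this window on either strand, and 11.2% of windows hold them. The same holds for a TATA box, searched by the letters TATAAA, which 13.6% of windows hold. It holds for a GC box, searched as GGGCGG, which is in 35.7% of windows. It holds too for a homeodomain core, searched by the letters TAAT, which is in 58.0% of windows. Motifs may overlap one another, and a match of letters is a description of the window only.

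In cluster 2, mean Edn3 was 1.20 counts per 10000 in Set 1, 1.89 in Set 2 and 1.22 in Set 3, or 1.44 ± 0.391 (SD, n = 3 sets). In the high-count cells of cluster 3 it was 3.48, 3.43 and 3.68, or 3.53 ± 0.131. In cluster 4 it was 1.09, 1.55 and 2.05, or 1.56 ± 0.478. The ranges of clusters 2 and 4 overlapped, so these neighbours in the order did not differ beyond their spread, while every set of the high-count cells lay above every set of both. In cluster 1 mean Edn3 was 0.0678, 0.0959 and 0.0421 counts per 10000, or 0.0686 ± 0.0269, below every set of the other neurons. The low-count cells gave 0.376, 0.845 and 0 in the sets, or 0.407 ± 0.423, from only 11 Edn3 counts. The clusters were made from these same cells and Edn3 was picked for its level, so no test was run between clusters.

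The share of cells with an Edn3 count followed a different order from the mean. It was 73.1% in cluster 2 (245 of 335 cells, 95% Clopper-Pearson interval 68.0 to 77.8) and 93.6% in the high-count cells (44 of 47, 82.5 to 98.7). It was 55.6% in cluster 4 (30 of 54, 41.4 to 69.1) and 18.0% in cluster 1 (70 of 388, 14.3 to 22.2). The median cell had 0.908 Edn3 counts per 10000 in cluster 2 and 0.200 in cluster 4, at means that overlapped over the sets. The intervals cover counting error only, and these shares depend on depth. The median cell held 40121 counts in cluster 2, 68061 among the high-count cells, 35488.5 in cluster 4 and 28396 in cluster 1.

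Cluster 2 gave 2356 of the 3973 Edn3 counts in the table, or 59.3%, from 38.2% of the cells. The high-count cells gave 30.9% of the Edn3 counts from 5.35% of the cells. Cluster 4 gave 7.43% from 6.15% of the cells, and cluster 1 gave 2.14% from 44.2% of them. After every cell was thinned to 15000 counts, mean Edn3 was 1.44 counts per 10000 in cluster 2, 3.41 in the high-count cells, 1.63 in cluster 4 and 0.0744 in cluster 1. The order of the means was therefore the same at equal depth. The thinned shares of cells with a count were 60.7%, 87.2%, 43.4% and 10.9% in that order of groups. Thinning left out 12, 0, 1 and 21 shallower cells of these groups and 53 of the 54 low-count cells, for which no thinned level is given.

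**Figure D1:**
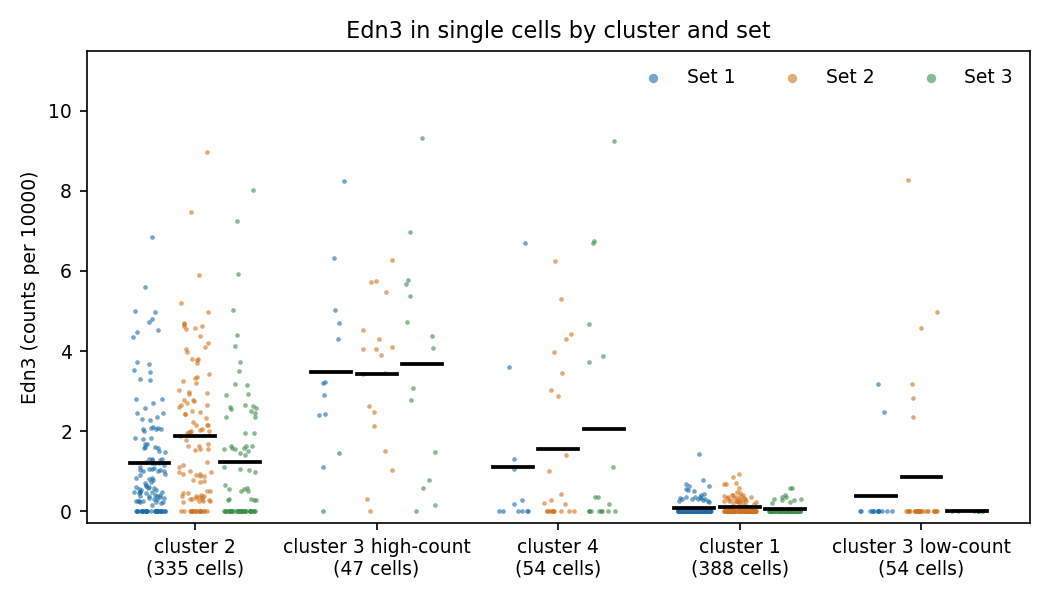
Edn3 in single cells (vertical axis, counts per 10000) by cluster (horizontal axis) and set (colour). Each point is a cell and each black bar is the mean of a set, from 1.20 to 1.89 in cluster 2 and from 3.43 to 3.68 in the high-count cells of cluster 3.

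The low level in cluster 1 was set beside that of 2 peptide transcripts with their highest levels in other cells. Edn3 in cluster 1 was 5.55% ± 2.26 (SD, n = 3 sets) of its level over all cells. Vip, the vasoactive intestinal peptide transcript of cluster 4, was at 5.04% ± 1.95 by the same measure and gave a count in 39.9% of cluster 1 cells. Agrp, highest in the high-count cells, was at 30.6% ± 11.8 and gave a count in 26.8% of cluster 1 cells. The 2 transcripts thus gave no single share, and Edn3 was close to Vip and below Agrp in every set. The cDNA of all wells of a plate was pooled before amplification, and the part of this in the cluster 1 counts was not tested. The highest cell held 77 Edn3 counts in cluster 2, 97 among the high-count cells and 34 in cluster 4, against 5 in cluster 1.

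Over the sets together, Edn3 in cluster 2 was graded rather than present or absent, by raw counts that also depend on depth. Of the 335 cells, 90 held no Edn3 count, 84 held 1 to 3, 69 held 4 to 9 and 92 held 10 or more. The upper quartile was 2.31 counts per 10000, the 90th percentile 3.76 and the highest cell 8.97. The sets differed in the shape of this spread as well as in the mean. Cells at 0 made up 24.1% of cluster 2 in Set 1, 17.0% in Set 2 and 44.2% in Set 3. Cells with 10 or more counts made up 17.5%, 43.8% and 22.1% in the same order of sets. The median cell was at 0.692 counts per 10000 in Set 1, 1.63 in Set 2 and 0.399 in Set 3. Set 2 was thus the richest in Edn3 by every one of these measures, and Set 3 joined a low median to a mean like that of Set 1.

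Plates of a set were close to each other in Sets 1 and 2 and wider apart in Set 3. The 4 plates of Set 1 had cluster 2 means of 1.15, 1.28, 1.21 and 1.11 counts per 10000. The 4 plates of Set 2 had 1.86, 1.87, 2.06 and 1.70, all above those of Set 1. The 3 plates of Set 3 had 0.861, 1.20 and 1.69. The cluster 1 means of the plates lay between 0 and 0.139, so no plate came near its cluster 2 level there.

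**Figure D2:**
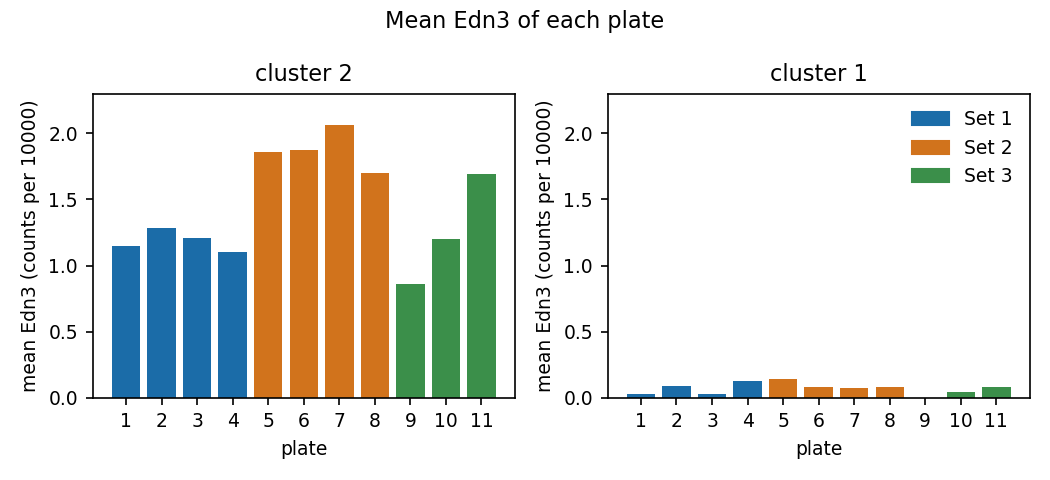
Mean Edn3 (vertical axis, counts per 10000) of each of the 11 plates (horizontal axis), in cluster 2 on the left and cluster 1 on the right, coloured by set. Cluster 2 means run from 0.861 to 2.06 and cluster 1 means from 0 to 0.139.

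Edn3 was the only endothelin ligand with more than a trace of counts. Edn1, the endothelin of blood vessels, had 0 counts in cluster 2 and in both kinds of cluster 3 cells, 1 in cluster 4 and 2 in cluster 1. Edn2, the third family member, had 0 counts in clusters 2 and 4 and 1 each in cluster 1, the high-count cells and the low-count cells. A count of 0 in the 335 cells of cluster 2 allows up to 3 counts, against 2356 of Edn3.

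Both receptors were low in cluster 2 and the high-count cells, while Ednra had its highest mean in cluster 4, which also held Edn3. Ednra, receptor A, averaged 0.102 ± 0.0274 counts per 10000 in cluster 2, 0.0689 ± 0.0176 in the high-count cells, 0.305 ± 0.102 in cluster 4 and 0.208 ± 0.0218 in cluster 1 (SD, n = 3 sets). The sets of the high-count cells and of cluster 2 overlapped in Ednra, and both lay below those of cluster 1. The sets of clusters 4 and 1 overlapped in Ednra. The low-count cells gave 1 Ednra count. Ednrb, receptor B, averaged 0.0439 ± 0.0333 in cluster 2, 0.0389 ± 0.0131 in the high-count cells, 0.0983 ± 0.0959 in cluster 4 and 0.0580 ± 0.0262 in cluster 1. A count of Ednrb was found in 25 of the 335 cluster 2 cells. The low-count cells gave 1.18 ± 1.42 counts per 10000 of Ednrb, from 13 counts in 6 cells.

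The converting enzymes were detected in every group of cells. Ece1 averaged 0.283 ± 0.0418 counts per 10000 in cluster 2, 0.348 ± 0.0790 in the high-count cells, 0.235 ± 0.0526 in cluster 4 and 0.270 ± 0.00921 in cluster 1. Ece2 averaged 0.409 ± 0.0348, 0.399 ± 0.00781, 0.262 ± 0.0632 and 0.438 ± 0.0608 counts per 10000 in the same order of groups. Clusters 1 and 2 thus overlapped over the sets in both enzymes, although cluster 1 held hardly any Edn3. The low-count cells gave 2.47 ± 1.44 of Ece1, from 33 counts. Ecel1, a neuronal peptidase named for its likeness to these enzymes, averaged 0.368 ± 0.220 in cluster 2 and was highest in cluster 1, at 1.25 ± 0.450. Mmel1, another related metalloprotease, was at most 0.0157 counts per 10000 in the neuron clusters, and Mme, Kel and Phex were not analysed here. All these are levels in counts per 10000 from 3′ ends, with no correction for transcript length.

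Over the 12 means of the 4 clusters in 3 sets, the genes most like Edn3 were Tgfb1i1, Tbx2, Clu, Ddit3 and Apbb2. Their Pearson r with Edn3 was 0.813, 0.777, 0.774, 0.769 and 0.762, the highest of 3416 genes. Clu, which encodes the secreted chaperone clusterin, shows the kind of likeness this is. It averaged 3.45 counts per 10000 over the cells of cluster 2, 3.02 in the high-count cells, 3.21 in cluster 4 and 1.59 in cluster 1. It was low in cluster 1, as Edn3 was, and was not higher in the high-count cells than in cluster 2. In the low-count cells, which held little Edn3, Clu averaged 2.95 counts per 10000, so the likeness did not extend to them. The 12 means share libraries and depth, cluster 3 enters with both kinds of cells, and no p is given.

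To see what else differed with Edn3, cells of cluster 2 above the median Edn3 level of their plate were called Edn3-high and the others Edn3-low. There were 68, 55 and 40 Edn3-high cells and 69, 57 and 46 Edn3-low cells in Sets 1, 2 and 3. Mean Edn3 was 2.19, 3.33 and 2.53 counts per 10000 in Edn3-high cells, against 0.219, 0.497 and 0.0832 in Edn3-low cells, which the split itself fixes. The plate medians ran from 0 to 1.97, and 63 of the 335 cells lay within 0.25 counts per 10000 of theirs, so the classes are ranges of 1 gradient and not cell types. Edn3-high cells were also deeper, with median totals of 41432, 53778 and 43264 counts per cell in the sets, against 34195, 39420 and 29717 in Edn3-low cells. The rank correlation of Edn3 with the counts per cell was 0.381, 0.633 and 0.580 in the 3 sets of cluster 2. Cells of matched depth were therefore compared as well.

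In cluster 2, 179 of 10348 genes, or 1.73%, passed limma's test at an adjusted p under 0.05, with sets entered as blocks. Of these, 110 were higher in Edn3-high cells (1.06% of the genes tested) and 69 lower (0.667%). The 10 lower genes with the smallest p were led by the neuropeptide Npy, the LIM domain protein gene Crip1 and the neuropeptide Gal. The 10 higher genes with the smallest p included the GDNF family receptor Ret, the sodium pump regulator Fxyd2, the G protein subunit Gnas, the neurotrophin receptor Ngfr and Ddah1, which breaks down an inhibitor of nitric oxide synthesis. Differences are on the scale of log2(1 + counts per 10000), averaged over the cells of a class. The median over all genes was 0.01. Without Set 2, 90 genes passed. With 3 sets, the small p-values rest on the spread that limma shares over all genes. Between Edn3-high and Edn3-low cells picked to equal numbers at like counts per cell, 17 genes (0.165%) passed, a setting added after the data were seen and holding fewer cells.

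Npy, the peptide stored with noradrenaline in sympathetic vesicles, averaged 21.8, 6.52 and 29.2 counts per 10000 in Edn3-high cells of Sets 1, 2 and 3, against 36.4, 21.4 and 38.0 in Edn3-low cells. The level was lower in Edn3-high cells of every set, although the ranges of the classes overlapped across sets. Its log2 difference was -1.13 (SE 0.0455, limma adjusted p = 9.54e-17), and by set it was -0.93, -1.27 and -1.18. The median Edn3-high cell held 4.82 Npy counts per 10000 and the median Edn3-low cell 22.6. With matched depth the difference was -0.70 (limma adjusted p = 2.5e-08).

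Crip1 averaged 5.29, 2.48 and 6.39 counts per 10000 in Edn3-high cells, against 9.45, 8.35 and 11.4 in Edn3-low cells, and the classes did not overlap. Its log2 difference was -0.96 (SE 0.0570, limma adjusted p = 1.07e-10), and -0.47 with matched depth (limma adjusted p = 0.000518). Gal, galanin, averaged 9.24, 4.33 and 10.0 counts per 10000 in Edn3-high cells, against 14.2, 8.95 and 13.6 in Edn3-low cells. It was lower in Edn3-high cells of all 3 sets, with a log2 difference of -0.43 (SE 0.0439, limma adjusted p = 1.13e-08). With matched depth the Gal difference was -0.04 (limma adjusted p = 0.953), so this call was lost.

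Ret, the signalling receptor for GDNF family ligands, averaged 1.33, 2.60 and 1.16 counts per 10000 in Edn3-high cells, against 0.796, 1.48 and 0.526 in Edn3-low cells. It was higher in all 3 sets, by 0.50 on the log2 scale (SE 0.0481, limma adjusted p = 3.42e-09), and by 0.33 with matched depth (limma adjusted p = 0.0136). Fxyd2, which encodes the gamma subunit of the sodium pump and is abundant throughout cluster 2, averaged 24.99, 24.5 and 21.1 counts per 10000 in Edn3-high cells, against 20.8, 19.99 and 15.7 in Edn3-low cells. The classes did not overlap, and the log2 difference of 0.37 (SE 0.0353, limma adjusted p = 3.42e-09) was 0.27 with matched depth (limma adjusted p = 0.00216).

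Gnas averaged 3.89, 5.33 and 3.41 counts per 10000 in Edn3-high cells, against 3.08, 3.65 and 2.02 in Edn3-low cells, a log2 difference of 0.47 (SE 0.0489, limma adjusted p = 1.99e-08). Ddah1 averaged 3.12, 4.79 and 3.06 in Edn3-high cells, against 2.37, 3.03 and 1.97 in Edn3-low cells, a log2 difference of 0.48 (SE 0.0518, limma adjusted p = 1.27e-07). Both were higher in every set and kept their calls with matched depth, at 0.29 and 0.45. Scg2, which encodes a granin of secretory vesicles, kept its call too, at -0.29 and, with matched depth, -0.41.

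The other named genes were Ngfr, Ntng1, Oxct1, Chchd10, Thy1 and Entpd3 among the higher, with log2 differences of 0.29 to 0.37. Among the lower they were 6330403K07Rik, Ahi1, Ecel1, S100a1, Adm and Bmp3, with differences of -0.40 to -0.17. All had the same sign in 3 of 3 sets. With Gal, these 12 genes make up the 13 of 20 named genes that lost the call with matched depth, where their differences lay between -0.19 and 0.20. Ngfr, the low-affinity neurotrophin receptor, illustrates them: it averaged 6.26, 8.24 and 12.9 counts per 10000 in Edn3-high cells, against 5.24, 6.34 and 8.75 in Edn3-low cells. Its log2 difference was 0.37, and 0.17 with matched depth (limma adjusted p = 0.288).

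**Figure D3:**
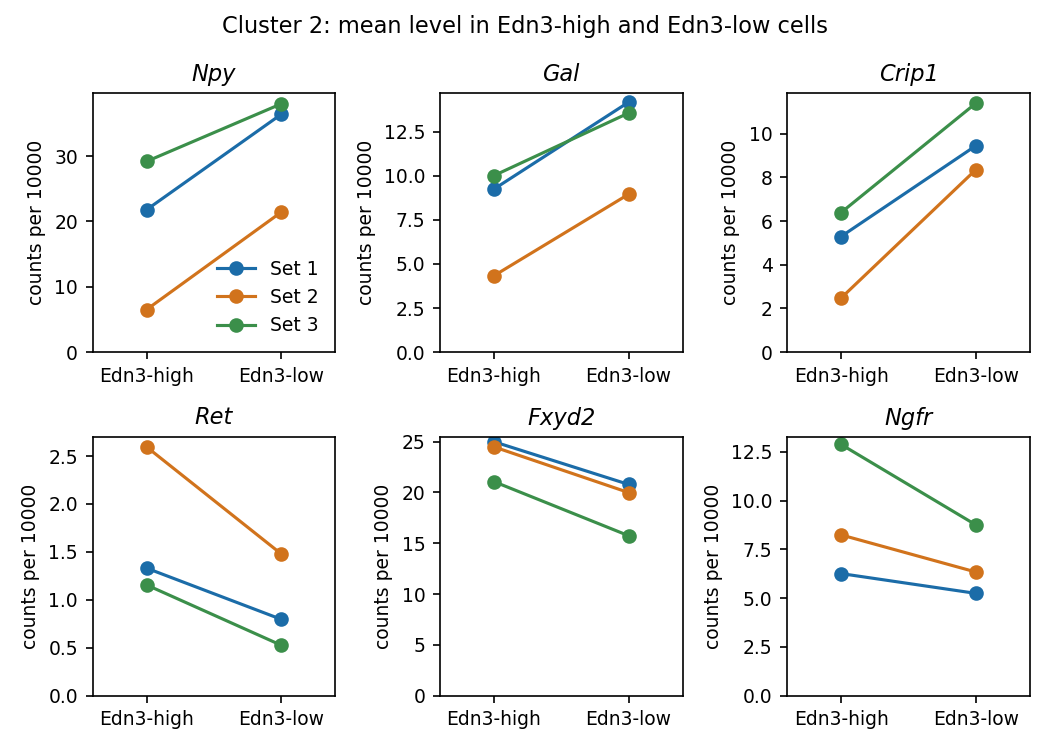
Mean level (vertical axes, counts per 10000) of Npy, Gal, Crip1, Ret, Fxyd2 and Ngfr in Edn3-high and Edn3-low cells of cluster 2 (horizontal axes), with a line for each of the 3 sets. Npy, Gal and Crip1 are lower in Edn3-high cells of every set, and Ret, Fxyd2 and Ngfr are higher.

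These genes also differed between clusters. Of the 10 named genes that were lower in Edn3-high cells, 8 had their highest mean level in cluster 1 among clusters 1, 2 and 4 and the high-count cells. Npy averaged 25.7 counts per 10000 in cluster 2, 2.25 in the high-count cells and 183 in cluster 1. Being lower in Edn3-high cells did not always go with a low level in the high-count cells, which held the most Edn3. Gal averaged 10.1 in cluster 2, 24.0 in the high-count cells and 53.8 in cluster 1, and Ecel1 was also higher in the high-count cells than in cluster 2, at 0.619 against 0.368. Of the 10 named higher genes, 6 had their lowest mean in cluster 1. Ret averaged 1.30 counts per 10000 in cluster 2, 2.69 in the high-count cells and 0.91 in cluster 1. These cluster means are a description, since the clusters were made from the same cells.

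Of the other endothelin genes, 0 of 1 receptor and 0 of 2 converting enzymes tested passed limma's test between the Edn3 classes of cluster 2, and 0 had an unadjusted p under 0.05. Ednra averaged 0.107 ± 0.0372 counts per 10000 in Edn3-high cells and 0.0984 ± 0.0436 in Edn3-low cells of cluster 2 (SD, n = 3 sets), with a limma adjusted p of 0.887. Ednrb was too low to be tested in cluster 2. Among the converting enzymes, Ece1 averaged 0.295 ± 0.0245 in Edn3-high and 0.272 ± 0.0725 in Edn3-low cells, and Ece2 averaged 0.399 ± 0.0396 and 0.418 ± 0.0299 in the same order. Ecel1 was lower, at 0.209 ± 0.146 in Edn3-high cells and 0.515 ± 0.285 in Edn3-low cells, a log2 difference of -0.26 (limma adjusted p = 1.83e-05) that was -0.19 with matched depth (limma adjusted p = 0.0964).

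Among lists of genes that bear on peptide neurons, 14 different genes passed in all, of which 5 passed with matched depth. Over all tested genes the shares that passed were 1.73%, and 0.165% with matched depth. Those reported here are named below. Of 8 tested secreted peptides, 3 were lower in Edn3-high cells (Npy, Gal and adrenomedullin, Adm) and 1 was higher (Agrp, agouti-related peptide), with a list median of -0.0048. Agrp averaged 0.297, 0.492 and 0.369 counts per 10000 in Edn3-high cells, against 0.137, 0.268 and 0.120 in Edn3-low cells, without overlap. With matched depth Npy and Agrp kept their calls, Agrp at 0.19 (limma adjusted p = 0.0425), and Gal and Adm lost theirs. Of 6 tested Ret-related and neurotrophin receptors, 3 were higher (Ret, its co-receptor Gfra2, and Ngfr) and 1 was lower (Ntrk3, the receptor for neurotrophin 3), with a list median of 0.16. Gfra2 averaged 1.16 ± 0.187 in Edn3-high and 0.839 ± 0.0950 in Edn3-low cells, and Ntrk3 averaged 0.0845 ± 0.0518 and 0.216 ± 0.0445 in the same order. With matched depth Ret and Ntrk3 kept their calls, Ntrk3 at -0.17 (limma adjusted p = 0.0328). Ngfr and Gfra2 lost theirs, Gfra2 at 0.11 (limma adjusted p = 0.713).

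The other lists held few or no calls. Of 9 prohormone processing genes, 1 was lower (Pcsk1n, an inhibitor of prohormone convertase), and of 10 noradrenergic genes, 1 was lower (Maob, a monoamine oxidase). Th, the rate-limiting enzyme of catecholamine synthesis, had a median of 57.1 counts per 10000 in Edn3-high and 57.8 in Edn3-low cells, and a limma adjusted p of 0.56. Of 8 immediate early genes, Jun was lower. None of Pcsk1n, Maob and Jun passed with matched depth, where limma gave differences of -0.02, -0.22 and -0.08 and adjusted p-values of 0.96, 0.237 and 0.699. Of 13 genes of Gq and calcium signalling, which endothelin receptors use, and of 8 sympathetic transcription factors, 0 passed by limma, with 3 and 2 at an unadjusted p under 0.05. Set beside the 1.73% of all tested genes, the counts are given as they are, and the lists were picked with results of these data known.

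Markers of other cell types were summed in the Edn3 classes of cluster 2. The 8 glial markers summed to 7.55, 12.0 and 4.99 counts per 10000 in Edn3-high cells, against 6.81, 21.6 and 8.51 in Edn3-low cells, higher in 1 set and lower in 2. The 10 endothelial markers summed to 1.14 to 1.49 in Edn3-high cells and 0.912 to 1.33 in Edn3-low cells, with Cdh5 and Kdr at 0 in both. Without the 10% of cells richest in glial counts, 162 genes passed.

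Cell by cell, the genes with the highest mean rank correlation with Edn3 in cluster 2 were Gnas and Ret, without a correction for depth. Spearman's rho, centred on plates, was computed in each set for 3373 genes with a mean of at least 0.5 counts per 10000. Gnas had 0.440, 0.548 and 0.477 in Sets 1, 2 and 3, Ret had 0.406, 0.497 and 0.495, and Ddah1 had 0.248, 0.520 and 0.444. Itga6, Chchd10, Oxct1, Ngfr and Mdh1 followed with means of 0.360 to 0.387. At the other end, Npy had -0.346, -0.477 and -0.404. Behind it came 6330403K07Rik, Crip1, Ahi1, Malat1, S100a1, Pcsk1n and Sncg, with means of -0.378 to -0.315. The median over all genes was 0.0301, and 5% to 95% of genes lay between -0.124 and 0.180.

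Thinning every cell to 15000 counts shrank the mean rho of the named followers, to 0.359 for Gnas, 0.355 for Ret, 0.373 for Ddah1 and -0.340 for Npy. At this equal depth Ddah1 stood above Gnas and Ret, so the order of the 3 depends on depth. All 16 kept their sign in every set. Itga6 and Mdh1 lost most, with 0.187 and 0.163. Without thinning, and so without a correction for depth, followers chosen in 2 sets were looked up in the set left out. The 20 highest had a median rho of 0.239 in Set 1, 0.363 in Set 2 and 0.286 in Set 3, and 20, 20 and 19 of them were above 0. The 20 lowest had -0.188, -0.328 and -0.199, and 20, 19 and 19 were below 0. The medians of all genes in these sets were 0.0175, 0.0471 and 0.0234. Cells of a set share a library and their depth, so these correlations are descriptions and carry no p.

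In cluster 4, the cholinergic neurons, Edn3 was nearer to an on or off pattern. Of its 54 cells, 24 held no Edn3 count, 10 held 1 to 3, 7 held 4 to 9 and 13 held 10 or more. Edn3 did not follow depth here: its rank correlation with the counts per cell was -0.134, -0.172 and -0.0238 in the sets, over 12, 24 and 18 cells. Most cells rich in Edn3 held somatostatin (Sst), an inhibitory neuropeptide, and little Th. Of the 20 cells with 4 or more Edn3 counts, 14 held Sst and the median Th was 3.75 counts per 10000. By set, 1 of 3, 8 of 10 and 5 of 7 of these cells held Sst in Sets 1, 2 and 3. Of the 10 cells with 1 to 3 counts, 1 held Sst and the median Th was 31.2. Of the 24 cells with none, 3 held Sst and the median Th was 30.0. This view of cluster 4 was added after the data were seen.

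**Figure D4:**
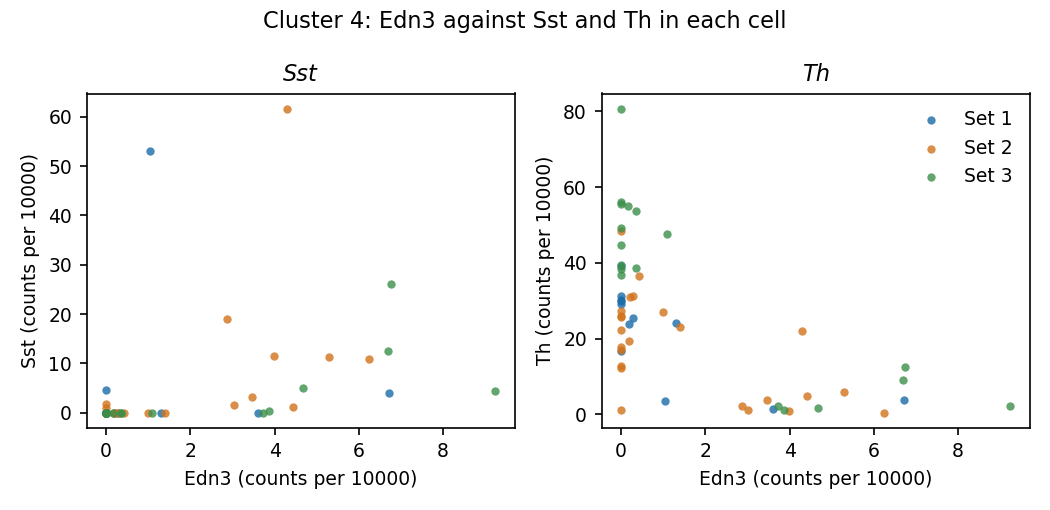
Sst (left, vertical axis) and Th (right, vertical axis) against Edn3 (horizontal axes), all in counts per 10000, in each of the 54 cells of cluster 4, coloured by set. Of the 20 cells with 4 or more Edn3 counts, 14 held Sst, and Th was mostly low in them, with a median of 3.75.

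Cluster 4 cells were split at the median Edn3 level of their set, which gave 27 Edn3-high and 27 Edn3-low cells, with 6, 12 and 9 of each in Sets 1, 2 and 3. The medians were 0.0946, 0.248 and 0.257 counts per 10000, and 25 of the 54 cells lay within 0.25 of theirs. Limma called 133 of 10483 genes (1.27%), with 75 higher (0.715%) and 58 lower (0.553%) in Edn3-high cells. Without Set 3, 66 passed.

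Sst averaged 9.53, 10.0 and 5.35 counts per 10000 in Edn3-high cells of Sets 1, 2 and 3, against 0.754, 0.217 and 0 in Edn3-low cells, a log2 difference of 1.47 (SE 0.127, limma adjusted p = 1.96e-27). A minority of the cells carried the mean of Set 1, where 2 of the 6 Edn3-high cells held Sst. Over the sets, the median Edn3-high cell held 1.11 Sst counts per 10000 and the median Edn3-low cell 0. Th averaged 13.7, 13.3 and 18.8 in Edn3-high cells, against 29.4, 21.8 and 50.7 in Edn3-low cells, a log2 difference of -1.73 (SE 0.105, limma adjusted p = 2.68e-47). Dbh, which makes noradrenaline from dopamine, went the other way, at 8.04 ± 0.676 in Edn3-high and 5.65 ± 0.702 in Edn3-low cells (limma adjusted p = 0.000505). None of these 3 overlapped between the classes. By set, the log2 difference was -1.60, -1.24 and -2.34 for Th and 0.94, 1.94 and 1.55 for Sst. The SEs above do not measure this spread.

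Other named genes that were higher in Edn3-high cells of cluster 4 were Crip1, Gda (guanine deaminase), Ncald (a calcium sensor), Zcchc12, Tspan8, 6330403K07Rik, Slc7a3, Pdlim3 and Cnn3. Those lower were the tetraspanin Cd63, Crtac1, Thy1, Cdkn1a (a cell cycle inhibitor), Tgfb1, Scg2, Lgals1 and Cenpf. Cd63-ps also passed as lower, but this pseudogene shares sequence with Cd63 and its counts are uncertain. Crip1 averaged 23.2, 32.4 and 30.6 counts per 10000 in Edn3-high cells, against 15.6, 18.0 and 16.2 in Edn3-low cells, so the direction was opposite to cluster 2. Among the lists, Adcyap1 (a peptide) and Rgs4 (a regulator of G proteins) were lower and the copper importer Slc31a1 was higher. The receptors and converting enzymes did not pass: Ednra averaged 0.424 ± 0.178 in Edn3-high and 0.186 ± 0.0336 in Edn3-low cells without overlap, with a limma adjusted p of 0.366. The glial markers summed to 12.7, 13.4 and 48.6 counts per 10000 in Edn3-high cells, against 11.0, 16.4 and 12.9 in Edn3-low cells, and 109 genes passed without the 10% of cells richest in them.

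Genes that went with Edn3 were therefore set side by side in clusters 4 and 2. Of the 133 genes called in cluster 4 and the 179 called in cluster 2, 21 were shared, which is 15.8% and 11.7% of these lists. Of these, 8 had the same direction and 13 the opposite one. The cluster 2 calls used here are those without matched depth. Edn3 followed counts per cell in cluster 2 and not in cluster 4, and the part of this in the opposite directions was not tested. A limma interaction term called 28 of 10548 genes (0.265%) as differing between the clusters, 18 with a more positive difference in cluster 4 (0.171%) and 10 with a more negative one (0.0948%), and 23 of the 28 had opposite signs. One of the 28, Sst, was too low to be tested in cluster 2, and 22 of the other 27 had opposite signs. This test rests most on Sets 2 and 3. It called 14 genes without Set 1, of which 10 were among the 28. It called 0 without Set 2 and 0 without Set 3, where 830 and 802 genes had an unadjusted p under 0.05. Ret, Fxyd2 and Ngfr had similar differences in both, of 0.36, 0.36 and 0.39 in cluster 4 and 0.50, 0.37 and 0.37 in cluster 2. Their interactions were -0.14, -0.01 and 0.02 (SE 0.141, 0.115 and 0.107), and none of the 3 passed within cluster 4.

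**Figure D5:**
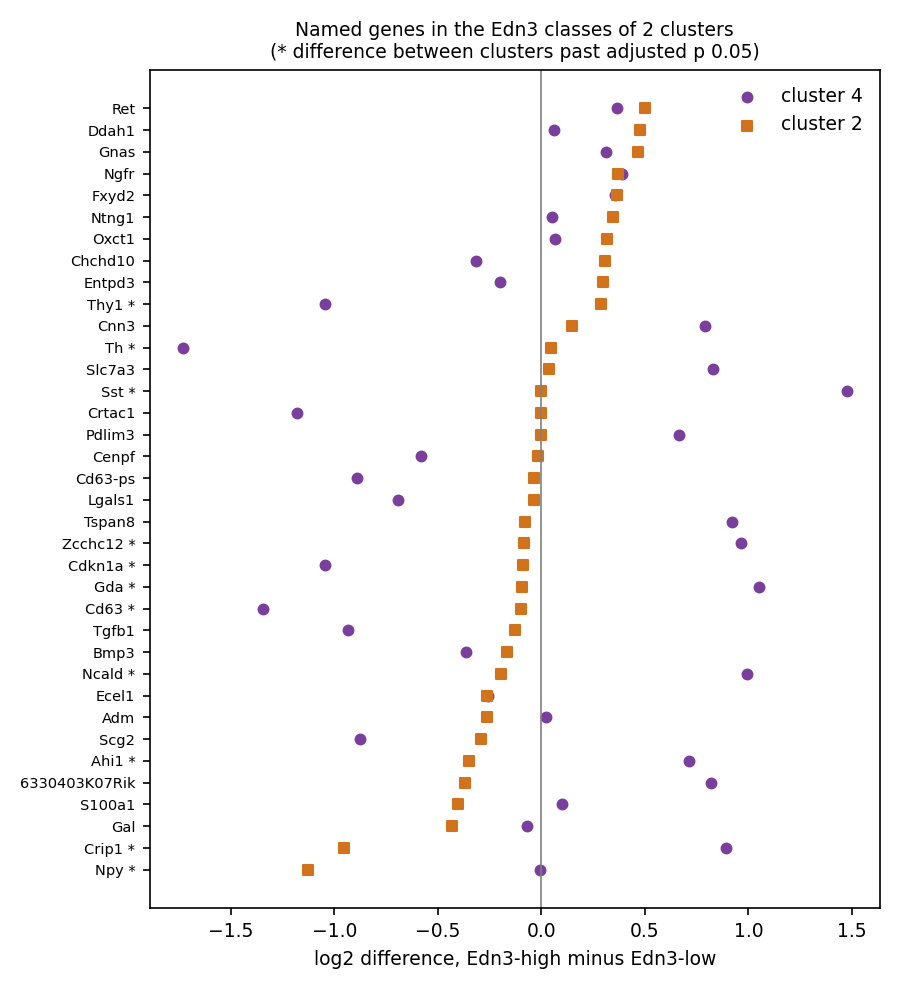
Log2 difference of Edn3-high minus Edn3-low cells (horizontal axis) in cluster 4 (circles) and cluster 2 (squares) for the genes named in either fit (vertical axis), with stars where limma called the difference between clusters. Ret, Fxyd2 and Ngfr lie together, while Crip1 is at 0.89 in cluster 4 and -0.96 in cluster 2.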

How the data were processed

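The deposited values are counts per 10000 of a cell, plus 1, on a natural log (ln) scale, judging by the submitters' processing notes and by the numbers. The authors' cluster numbers and set names are labels without a unit. Undoing the log gave whole counts, to within 0.001, for 100% of non-zero values. Per the labels' protocols, cDNA was pooled within a plate for 3′ end libraries. Per the submitters' processing notes, STAR 2.5.3a, featureCounts 1.5.3, SAMtools 1.4.1, Seurat and GRCm38 were used. Whether counting used strand is not given.

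Edn3, the lists, and the tests were chosen with earlier results of these data known. limma 3.58.1 (R 4.3.3, trend and robust options, two-sided, Benjamini-Hochberg over all tested genes) was run on log2(1 + counts per 10000), averaged over the cells of each set and Edn3 class, for genes with a mean of at least 0.05 counts per 10000, leaving out Edn3. Such differences understate changes of low genes. The set was a block because both classes come from the same pooled mice, and their deviations correlated at 0.741, 0.834 and 0.852 within sets. No count test was run, although whole counts could be recovered from the deposited logs. Named genes are the endothelin genes, the 10 with the smallest p in each direction with 1 sign in 3 sets, the 8 highest and 8 lowest mean rho, the 5 highest r over cluster means, called list members (at most 4 per list) or else the 2 most abundant, and fixed cluster markers. Others named singly were chosen after their values were seen. Some genes of the lists are not reported here. No doublet caller was run. All 96 cell barcodes occur in more than 1 plate, as plate wells reuse them. matplotlib 3.10.9, scipy 1.17.1, pandas 2.3.3 and numpy 2.4.6 were used in Python 3.11.15, and the fits were tested on simulated data. Of 100 genes given a simulated 2-fold change, the cluster 2 fit called 99 and the cluster 4 fit 47. These genes had a mean of at least 0.5 counts per 10000. A gene that did not pass in cluster 4 may therefore still differ there.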

Additional observations from a re-analysis of the deposited data

Results flagged for a closer look

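The Edn3-high minus Edn3-low difference differed between clusters 4 and 2 for 11 of the named genes, by a limma interaction term at an adjusted p under 0.05. The difference of the log2 differences, cluster 4 minus cluster 2, was 1.85 for Crip1, 1.47 for Sst, 1.19 for Ncald, 1.15 for Gda, 1.12 for Npy, 1.06 for Ahi1 and 1.05 for Zcchc12. It was -1.78 for Th, -1.33 for Thy1, -1.24 for Cd63 and -0.96 for Cdkn1a. The value for Sst only repeats its difference within cluster 4, since Sst had 9 counts in the 335 cells of cluster 2 and was too low to be tested there. Npy stood at -0.01 in cluster 4 and -1.13 in cluster 2, and Th at -1.73 in cluster 4 and 0.05 in cluster 2. Crip1, Ahi1, Ncald and Thy1 passed in both clusters with opposite directions. With matched depth, Ahi1 and Thy1 lost their call in cluster 2 and Crip1 kept it, while the outcome for Ncald is not reported here. No interaction was fitted with matched depth. None of the 11 passed without Set 2 or without Set 3. In Sets 1 and 2, no plate stood far from the others of its set in Edn3, in 7 groups of plates examined, of which chance marks about 1 in 20. Set 3 holds 3 plates, too few for this check, and was not examined.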

How the results depend on the processing

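No gene named from the class fits, as a follower or for its interaction changed direction under any setting run for it. Direction was not followed for the other named genes. With matched depth, 173 of the 177 cluster 2 calls tested kept their sign. The 179 calls in cluster 2 became 50 after thinning, 12 for cells with a count against cells at 0, 334 with a pseudocount of 0.1 (274 higher, 60 lower), 1 without the filter on low values, 94 with median-of-ratios size factors (47 higher, 47 lower, against 110 and 69), 17 with matched depth, and 0 with no replicate block by limma (155 at an unadjusted p under 0.05). The 14 list genes became 8 after thinning, 3 for cells with a count against 0, 1 without the filter, 5 with matched depth and 0 with no replicate block. The 133 calls in cluster 4 became 81 after thinning, 68 for cells with a count against 0, 58 with median-of-ratios factors and 33 with no replicate block. The 28 interaction calls became 10 with median-of-ratios factors and 0 without the filter (limma, 1204 at an unadjusted p under 0.05). Without 1 set, the ranges were 90 to 215, 11 to 16, 66 to 123 and 0 to 14. As a median over cells Edn3 was 0.908 in cluster 2, 0.200 in cluster 4 and 0 in cluster 1, and from summed counts it was 3.68 in the high-count cells. Of the values of named genes under the settings, 225 kept their call in cluster 2 and 75 lost it; in cluster 4 these were 186 and 14. The causes were not tested. Depth limits low genes most, and 3 sets limit the precision of all tests.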

Other observations

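Gnas, which had the highest mean rank correlation with Edn3 in cluster 2 before thinning and came behind Ddah1 after it, is also near Edn3 in the genome. By GENCODE M21 it lies at chr2:174284320-174346744 in GRCm38 on the plus strand, 413875 bases before Edn3. It is overlapped by 5 other annotated genes, 2 of them on the other strand. Reads of those 2 cannot be told apart from its own without strand, and strand would not separate the rest. The table holds 19 other genes within 1000000 bases of Edn3, of which 6 were abundant enough for a rank correlation in cluster 2. The other 5 were Nelfcd at 0.119, Vapb at 0.0647, Prelid3b at -0.000308, Ctsz at -0.0406 and Atp5e at -0.0578, against 0.488 for Gnas. This neighbourhood was looked at after the likeness of Gnas had been seen, and no test was run.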
